A study of Mus musculus with 8 samples.

Results

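Ribosomal protein pseudogene copies were taken from the gene count table by symbol: every gene named Rpl or Rps with a number and the ending -ps, and Rps3a3. The rule found 235 of the 41249 genes of the table. Their names point to 56 parent genes, of which 55 were in the table and Rpl48 was not. The largest families were those of Rpl31 with 22 copies and Rps12 with 21, and 18 parents had 1 copy each. The libraries came from mouse splenic B cells of 4 genotypes on a mixed background that the labels write as 129/C58BL/6: wild-type, and animals homozygous for a deletion of the 3'RR, of hs3b-hs4 or of 3'PAL. The 3'RR is a group of enhancers at the 3' end of the IgH locus, and hs3b and hs4 are enhancers within it; the labels give 3'PAL only as a homozygous deletion. No deleted element is a gene of the table, and the genotypes were not checked from the counts here. Each genotype was measured resting, as freshly isolated cells depleted of CD43+ cells, and stimulated, after 48 h in culture with 5 µg/mL of LPS, a bacterial lipopolysaccharide that activates B cells through Toll-like receptor 4. Each of the 8 libraries was a pool of cells from 4 animals, with 1 library per genotype and state and so no replicate within a group. The sources used here do not say whether resting and stimulated pools share animals, and ages are not used here.

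Ribosomal proteins of the large (Rpl) and small (Rps) subunit are each made from a highly expressed, intron-containing gene. Their messenger RNAs have been copied back into the genome many times by retrotransposition. The copies, called processed pseudogenes, lack introns, lie far from the parent gene and mostly do not have its promoter. Many differ from the spliced parent messenger RNA by few bases, so short reads from parent and copy can be hard to tell apart. The sources used here do not say how the authors counted reads that fit several places, so the counts of a copy and its parent are described below as counts assigned to each, and a count on a copy is uncertain as a measure of its own transcript.

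The sequences below show single differences between parents and copies, among them copies whose counts differed between genotypes. They are short windows of the parent's coding sequence and the aligned bases of its copies, 5' to 3', from GENCODE M21 transcripts on GRCm38. Each base that differs from the parent is in capitals. The windows were placed around a difference and do not give how far a whole copy differs. The 13 copies that fell in the 3'RR deletion, described below, had 2 to 30 differing bases. Coding positions count from 1 at the A of the parent's start codon, and a substitution gives the parent's base first. Rps3a1 encodes a small subunit protein, and Rps3a3 is its copy; the window holds T216C, whose parent position is chr3:86141377-86141377 in exon 3 of 6.
Rps3a1: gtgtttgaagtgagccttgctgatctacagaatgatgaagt
Rps3a3: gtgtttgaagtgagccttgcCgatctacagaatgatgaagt
Rpl34 and its only copy differ at T132C and, in this window, at C318G (chr3:130726911-130726911, exon 5 of 5).
Rpl34: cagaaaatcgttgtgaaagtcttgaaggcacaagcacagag
Rpl34-ps1: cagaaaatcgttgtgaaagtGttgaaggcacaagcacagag
Rps13 and 4 of its copies are shown around T411C (chr7:116332390-116332390, exon 5 of 6); the window runs across an exon junction of the parent.
Rps13: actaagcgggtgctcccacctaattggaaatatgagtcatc
Rps13-ps1: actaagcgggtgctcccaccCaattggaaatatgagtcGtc
Rps13-ps5: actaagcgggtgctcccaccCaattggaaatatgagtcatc
Rps13-ps4: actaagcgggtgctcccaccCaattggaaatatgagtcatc
Rps13-ps2: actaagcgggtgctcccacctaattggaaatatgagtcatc
Rps15a and 5 copies are shown around T150C (chr7:118114848-118114848, exon 3 of 5), also across an exon junction.
Rps15a: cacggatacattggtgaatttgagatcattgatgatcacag
Rps15a-ps7: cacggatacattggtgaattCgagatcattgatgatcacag
Rps15a-ps6: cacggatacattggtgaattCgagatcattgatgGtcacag
Rps15a-ps5: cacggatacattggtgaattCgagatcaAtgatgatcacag
Rps15a-ps3: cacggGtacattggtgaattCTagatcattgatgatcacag
Rps15a-ps8: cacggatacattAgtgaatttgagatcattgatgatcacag
Rpl3, which encodes a large subunit protein near the catalytic centre, and both of its copies are shown around T786C (chr15:80079753-80079753, exon 6 of 10).
Rpl3: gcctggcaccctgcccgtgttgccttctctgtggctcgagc
Rpl3-ps1: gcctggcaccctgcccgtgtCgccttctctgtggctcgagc
Rpl3-ps2: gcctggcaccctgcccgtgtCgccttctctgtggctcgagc
The last window is the end of the Rpl30 coding sequence, where G342A (chr15:34440561-34440561, exon 4 of 4) was found in Rpl30-ps9 and in none of the other 7 copies.
Rpl30: atgccagaacagactggtgagaagtaa
Rpl30-ps9: atgccagaacagactggtgaAaagtaa
Rpl30-ps1: atgccagaacagactggtgagaagtaa

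Of the 235 copies, 228 could be aligned to a transcript of their parent. The median identity was 97.1% (range 77.5% to 100%), with a median of 12 differing bases, and 14 copies had none. A reading frame as long as the parent's, starting at the aligned start codon, was open in 113 of the 228. Copies lay on 20 chromosomes, with 34 on X, and 72 of the 228 lay inside the span of another annotated gene, 23 of them on the same strand. Rps3a3, for example, lies at chr13:108670603-108671397 inside Pde4d on the same strand, while Rpl34-ps1 at chr6:71124610-71124963 lies inside no other annotated gene.

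The libraries held 17883683 to 28785192 counts assigned to genes. The summed level of 6 B cell markers was 2975 to 3123 CPM (counts scaled to library size, with TMM factors) in the resting and 2366 to 2983 CPM in the stimulated libraries. Erythroid (8 genes), macrophage (7), T cell (5), megakaryocyte and platelet (4) and neutrophil (4) markers were lower in every stimulated library than in every resting one. Their summed ranges fell from 3068 to 21350 CPM down to 10.6 to 242 CPM for erythroid, from 235 to 1142 down to 4.71 to 7.77 for macrophage, and from 13.8 to 42.8 down to 0.0719 to 0.379 for T cell markers. For platelets the ranges were 11.8 to 56.4 and 1.15 to 1.44 CPM, and for neutrophils 0.256 to 1.84 and 0 to 0.12 CPM.

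Counts had been assigned to 174 of the 235 copies, while 61 had none in any library. Another 51 never exceeded 3 counts in a library, which is the limit that a count of 0 allows and corresponds to 0.104 to 0.154 CPM here. The low-count filter, which needs a minimum count in enough libraries, kept 97 copies of 47 parents. The copies kept were closer to their parents in sequence: a median of 4 differing bases and 99.1% identity, against 23 bases and 95.0% in the 131 aligned copies not kept, and 65 of the 97 kept the open frame against 48 of the 131. Per kilobase of annotated exons, the median copy among the 97 had 1.97% of its parent's mean level over the 8 libraries, with 40 below 1% and 23 above 10%. The highest mean levels per kilobase were 456 CPM for Rps3a3, 392 CPM for Rpl34-ps1, 269 CPM for Rps6-ps3 and 215.5 CPM for Rpl15-ps3. Rpl34-ps1 (164%), Rpl15-ps3 (123%) and Rps15a-ps7 (106%) thus had more counts per kilobase than their parents in this table. In the authors' transcript quantification, described below, Rpl15-ps3 had 0 estimated counts in every library against 5479 to 24210 for Rpl15.

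Summed over all 235, the copies took 0.122% and 0.163% of all counts in the resting and stimulated 3'RR deletion libraries and 0.205% to 0.336% in the other 6. Relative to the summed parents, this was 3.35% and 3.36% in the 3'RR deletion libraries and 5.37% to 7.62% elsewhere. The 3'RR deletion libraries had the 2 lowest values on both scales. Against wild-type, the summed TMM-scaled level was 0.634 (95% interval 0.624 to 0.643) resting and 0.621 (0.614 to 0.628) stimulated. Without Rps3a3, the copy with the most counts, the ratios were 0.783 and 0.797. These intervals, and those of all ratios of 2 libraries below, are exact conditional binomial intervals that cover counting error only.

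Part of the copies passed the test. In the fit over all genes (edgeR quasi-likelihood test, genotype and state as terms, Benjamini-Hochberg adjusted p under 0.05), 13 of the 97 copies fell in the 3'RR deletion and 0 rose, against 1.04% of all 14744 tested genes that fell and 0.922% that rose. The 13 were Rps3a3, Rpl34-ps1, Rps13-ps1, Rps13-ps5, Rpl30-ps9, Rpl3-ps1, Rpl3-ps2, Rpl29-ps5 and the Rps15a copies -ps3, -ps5, -ps6, -ps7 and -ps8. They belong to 7 parents and lie on 9 chromosomes. None lies on chromosome 12, that of the heavy chain locus. It holds only 4 of the 97 tested copies, so this absence can not be read as a trait of the 13. In each of the 13, both 3'RR deletion libraries were below all 6 others, as in 15 of the 97 tested copies and in 2.55% of all tested genes. The 13 were called from these same libraries, so this order largely follows from the call. The median log2 fold change over the 97 was -0.30, against 0.05 over all tested genes, and stayed at -0.30 with Rps15a-ps8, at 0 counts in both 3'RR deletion libraries, set to its bound. Macrophage markers moved with the genotype as well: their sum was 1142 CPM in the resting 3'RR deletion against 235 to 458 CPM in the other resting libraries, and 7.77 against 4.71 to 6.01 CPM in the stimulated ones. Platelet (56.4 against 11.8 to 36.7 CPM) and neutrophil markers (1.84 against 0.256 to 0.809 CPM) were also highest in the resting 3'RR deletion, but not in the stimulated one. Erythroid markers were higher in the 3'RR deletion than in wild-type, at 13250 against 3068 CPM resting and 157 against 10.6 CPM stimulated. They were highest in the 3'PAL deletion (21350 and 242 CPM). T cell markers were 38.1 against 17.1 CPM resting, with 42.8 CPM in the hs3b-hs4 deletion, and 0.379 against 0.0719 CPM stimulated. The part of all these markers in the values of these copies was not tested.

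**Figure D1:**
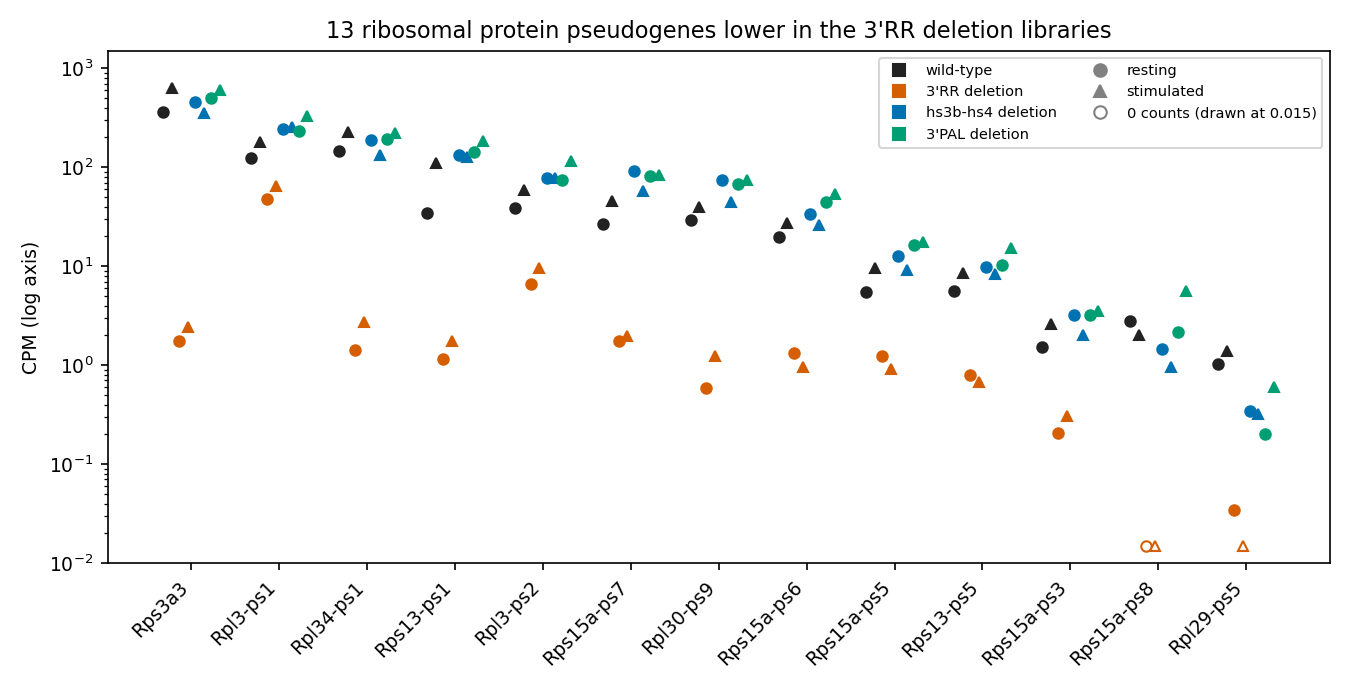
Level of each of the 13 copies in every library (CPM, log axis; colour gives the genotype, circles resting, triangles stimulated, open symbols 0 counts). Both 3'RR deletion libraries lie below all 6 others for each copy, by the smallest ratio for Rpl3-ps1 (48.2 and 65.3 CPM against 125 CPM in the next library). The copies were chosen for low values in these libraries, so this order largely follows from the choice.

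Rps3a3 had the most counts of all copies. Its level in resting cells was 359 CPM in wild-type, 1.74 in the 3'RR deletion, 457 in the hs3b-hs4 deletion and 498 in the 3'PAL deletion. In stimulated cells it was 630, 2.42, 350 and 607 CPM in the same order. The 3'RR deletion libraries, with 50 and 64 counts, were thus far below the other 6, which overlapped between states. Rps3a3 fell by 7.87 on the log2 scale (SE 0.36, edgeR adjusted p = 0.00023), and the ratios to wild-type were 0.0048 (0.0036 to 0.0064) resting and 0.0039 (0.003 to 0.0049) stimulated.

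Rpl34-ps1 is a copy of Rpl34, which encodes a large subunit protein, and keeps the parent's full reading frame. It had 145, 1.43, 186 and 192 CPM in resting cells of wild-type, 3'RR, hs3b-hs4 and 3'PAL deletion, and 229, 2.73, 132 and 222 CPM in stimulated cells. It fell by 6.49 on the log2 scale in the 3'RR deletion (SE 0.37, edgeR adjusted p = 0.00041). Apart from the 3'RR deletion, its lowest level was in the stimulated hs3b-hs4 deletion.

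Rps13 encodes a small subunit protein, and 2 of its 7 copies fell. In the same genotype order, Rps13-ps1 had 34.2, 1.15, 133 and 142 CPM resting and 110, 1.74, 126 and 183 CPM stimulated. Its log2 fold change was -5.53 in the 3'RR deletion (SE 0.47, edgeR adjusted p = 0.0022). Apart from the 3'RR deletion, the resting wild-type library was the lowest. Rps13-ps5 had lower levels, 0.68 and 0.80 CPM in the 3'RR deletion and 5.58 to 15.4 CPM in the other libraries, and fell by 3.22 (SE 0.32).

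Rps15a copies made up 5 of the 13. Rps15a-ps7, the highest, had 26.4, 1.74, 91.9 and 81.2 CPM resting and 45.8, 1.97, 57.7 and 83.4 CPM stimulated, in the order given. Its log2 fold change was -4.28 (SE 0.36), and those of Rps15a-ps6, Rps15a-ps3 and Rps15a-ps5, which also passed, were -4.36, -3.001 and -2.80. Rps15a-ps8, the least similar to the parent of the 5 with 30 differing bases, had 0 counts in both 3'RR deletion libraries. That makes it at least 26.5-fold lower than wild-type resting (54 counts) and at least 17.7-fold lower stimulated (56 counts), with 3 counts per library as the floor.

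In the gene table, the Rpl3 copies kept the largest remainder in the 3'RR deletion. Rpl3-ps1 had 125, 48.2, 245 and 230 CPM resting and 178, 65.3, 256 and 329 CPM stimulated. It fell by 1.41 (SE 0.15, edgeR adjusted p = 0.0058) and Rpl3-ps2 by 2.59 (SE 0.19). Both were called higher with stimulation, as Rpl3 was, but in 10 of 19 alternatives for Rpl3-ps1 and 7 of 18 for Rpl3-ps2. In the hs3b-hs4 deletion their stimulated to resting ratios were 1.04 and 0.992.

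Rpl30-ps9, one of the 8 copies of the large subunit gene Rpl30, had 29.4, 0.591, 73.7 and 67.4 CPM resting and 39.8, 1.25, 44.2 and 74.7 CPM stimulated, and fell by 5.24 (SE 0.40). Rpl29-ps5 was near the limit of detection. It had 20, 1, 9 and 5 counts resting and 39, 0, 8 and 17 counts stimulated. Its ratio to wild-type was 0.034 (0.00082 to 0.212) resting, and it was at least 12.3-fold lower stimulated. Leaving out any 1 of the wild-type or 3'RR deletion libraries ended the call of Rpl29-ps5, and those of Rps15a-ps8, Rps15a-ps3, Rps15a-ps5 and Rpl3-ps1 were each lost without 1 or more of the same libraries.

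The parents mostly went the other way, as ribosomal protein genes did in general. In the 3'RR deletion 52 of the 55 parents had positive values (median log2 fold change 0.22). So had 76 of the 80 cytosolic ribosomal protein genes (median 0.23). In the hs3b-hs4 and 3'PAL deletions 49 of the 55 parents were positive in each (medians 0.165 and 0.18). In the 3'RR deletion 3 of the 55 passed as higher and 0 as lower (background 0.922% and 1.04% as above). The 3 were Rps3a1, Rpl34 and Rpl29, all parents of copies that fell. Rps3a1 was assigned 557, 1141, 591 and 605 CPM in resting and 782, 1770, 1049 and 732 CPM in stimulated cells of wild-type, 3'RR, hs3b-hs4 and 3'PAL deletion. It rose by 1.11 on the log2 scale (SE 0.17, edgeR adjusted p = 0.023), and Rpl34 by 1.35 (SE 0.16, edgeR adjusted p = 0.0082). The other parents of copies that fell had positive values that did not pass, as most of the 55 had. These were 0.69 for Rps13 (edgeR adjusted p = 0.15), 0.53 for Rps15a (0.22), 0.38 for Rpl3 (0.40) and 0.35 for Rpl30 (0.37). Calls of the parents were the less stable ones, with 0 of the 3 left without the resting wild-type library or without either 3'RR deletion library.

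Leaving Rpl29 aside, 6 families had a called copy. In the 3'RR deletion their parent and copies together differed by less from wild-type than the parent alone. The families were chosen for a copy that fell, and their parents had positive values. This order thus follows from the choice and tests nothing, and the sums are given as a description. Rps3a1 was summed with Rps3a3 and with Rps3a2, a further copy that the symbol rule does not take and that also fell in the 3'RR deletion (-1.44, SE 0.23, edgeR adjusted p = 0.026). The sum was 1045, 1200, 1227 and 1301 CPM resting and 1644, 1846, 1559 and 1550 CPM stimulated, so that the 3'RR deletion was 1.15 (1.13 to 1.17) and 1.12 (1.11 to 1.14) times wild-type. The same ratio for Rps3a1 alone was 2.05 and 2.26. For Rpl34 the summed ratio was 1.4 and 1.17, against 2.78 and 2.34 for the parent alone.
For the other families, summed ratios were 1.70 and 1.10 for Rps13, 1.59 and 1.08 for Rps15a, 1.22 and 1.08 for Rpl3 and 1.30 and 1.11 for Rpl30. All 55 parents summed gave 1.26 and 1.15. Rpl29 differed from this description: its copies together never held more than 2.01 CPM, and the parent itself ranged from 55.2 CPM (resting hs3b-hs4 deletion) to 498 CPM (stimulated 3'RR deletion).

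**Figure D2:**
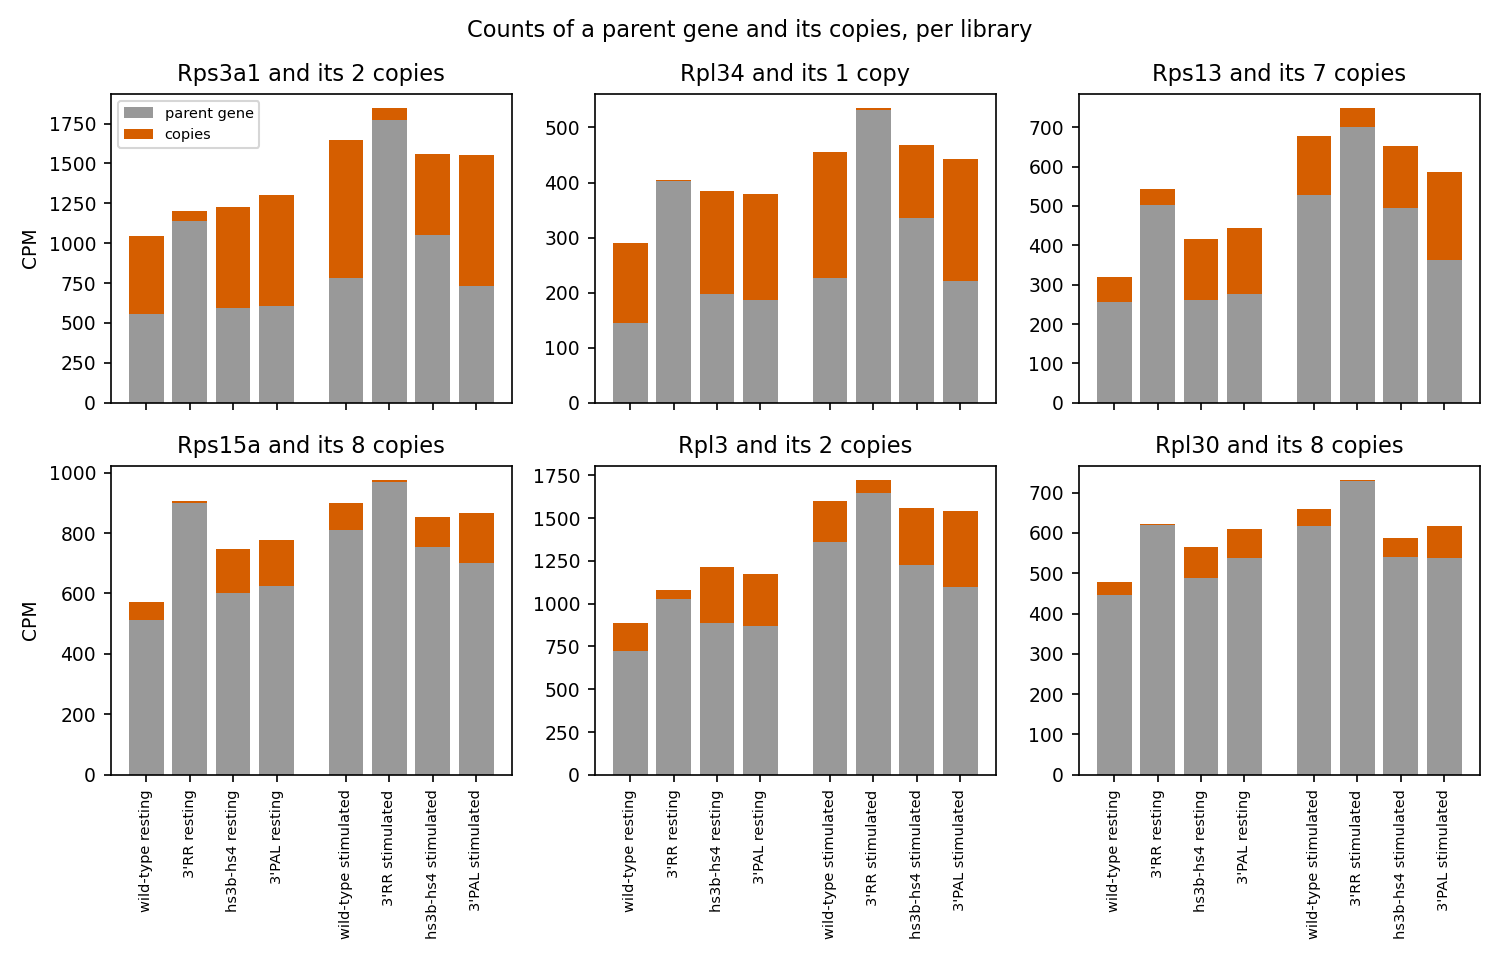
Counts assigned to the parent gene (grey) and to its copies (orange), stacked, in CPM per library for 6 families; Rps3a2 is counted among the Rps3a1 copies. The orange part is nearly absent in both 3'RR deletion libraries for Rpl34 (1.43 and 2.73 CPM) while the bar as a whole is as high as in the other genotypes or higher.

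The share of a family's counts that went to the copies was lowest in both 3'RR deletion libraries in all 6 families. They were chosen for copies that fell in these libraries, so this rank follows from the choice. The sizes of the shares and the order of the other libraries are described here. For Rpl34 the copy held 49.95%, 0.353%, 48.5% and 50.7% in resting cells of wild-type, 3'RR, hs3b-hs4 and 3'PAL deletion, and 50.2%, 0.51%, 28.3% and 50.2% in stimulated cells. The stimulated hs3b-hs4 deletion library thus stood between the 3'RR deletion and all others. For the Rps3a1 family the shares were 46.75%, 4.96%, 51.9% and 53.5% resting and 52.4%, 4.11%, 32.7% and 52.8% stimulated, with the same library in between.

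In the other 4 families both wild-type libraries also had a middle share. Copies of Rps13 held 19.9%, 7.29%, 37.4% and 37.7% resting and 22.2%, 6.42%, 24.45% and 38.0% stimulated. Copies of Rps15a held 10.1%, 0.595%, 19.5% and 19.4% resting and 9.93%, 0.486%, 11.4% and 19.2% stimulated. In both families the resting and stimulated wild-type and the stimulated hs3b-hs4 deletion libraries were near each other and between the remaining values. Copies of Rpl3 (18.45%, 5.06%, 26.7% and 26.0%, then 14.8%, 4.35%, 21.4% and 28.9%) and of Rpl30 (6.92%, 0.347%, 13.5% and 11.5%, then 6.44%, 0.353%, 7.98% and 12.8%) gave the same order, with wild-type below the hs3b-hs4 and 3'PAL deletions.
Resting and stimulated libraries of the hs3b-hs4 deletion carry the same genotype label but differed in these shares, for Rpl34 by 48.5% against 28.3%. Families without a copy called in the 3'RR deletion varied to different extents over the 8 libraries. The 4 copies of Rps6, which encodes a small subunit protein phosphorylated on growth signals, held 26.9% to 31.7% of its counts. The Rpl15 copies held 37.6% and 38.8% in the resting and stimulated 3'RR deletion and 20.8% to 29.9% elsewhere, Rpl14-ps1 2.77% to 7.63%, and the Rpl27 copies 3.89% to 11.2%, the last 2 highest in resting wild-type. Each genotype and state is 1 pool, so the deletion and the animals pooled cannot be told apart.

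**Figure D3:**
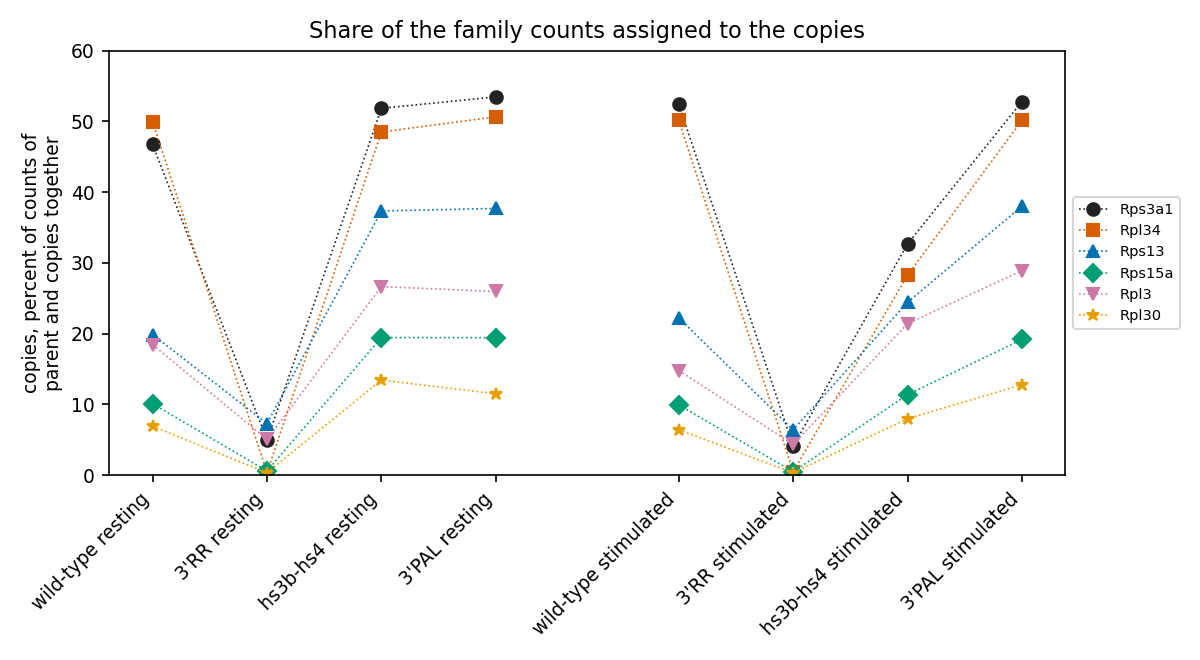
Percent of the counts of parent and copies together that were assigned to the copies, per library, for 6 families (Rps3a2 counted with the Rps3a1 copies); dotted lines only join a family's points within a state. The 6 families were chosen for copies that fell in the 3'RR deletion, where all 6 are lowest. Rps3a1 and Rpl34 (28.3%) also drop in the stimulated hs3b-hs4 deletion library.

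Copies of the same parent did not all move together. Of the Rps13 copies, -ps1 and -ps5 fell, but Rps13-ps4 had 22.1, 35.1, 11.6 and 13.7 CPM resting and 30.1, 41.2, 22.3 and 23.0 CPM stimulated, highest in the 3'RR deletion within each state. Rps13-ps2, identical to its parent over the whole aligned length, had 1.64, 2.47, 1.16 and 1.14 CPM resting and 2.66, 4.4, 3.13 and 1.65 CPM stimulated, also highest in the 3'RR deletion. Neither passed the test (log2 fold changes 0.57 and 0.66). T411C is carried by both copies that fell and by 3 of the other 5 aligned Rps13 copies, Rps13-ps4 among them. T786C is in both Rpl3 copies. T150C is in 4 of the 5 Rps15a copies that fell, not in Rps15a-ps8, and in all 3 other copies.

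Rpl15-ps3, a copy of the large subunit gene Rpl15 without a differing base, had the highest values in the 3'RR deletion. Its levels were 86.1, 140, 51.9 and 63.7 CPM resting and 154, 289, 156 and 120 CPM stimulated. The log2 fold change of 0.80 (SE 0.19) missed the threshold with edgeR (adjusted p = 0.098) and passed it with DESeq2 (0.78, adjusted p = 0.017), as the only copy called higher there. DESeq2 called 14 copies lower in the 3'RR deletion, all 13 named above and Rpl30-ps8, which was named after its values were seen. Over all 14744 tested genes DESeq2 called 249 lower and 282 higher there.

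**Figure D4:**
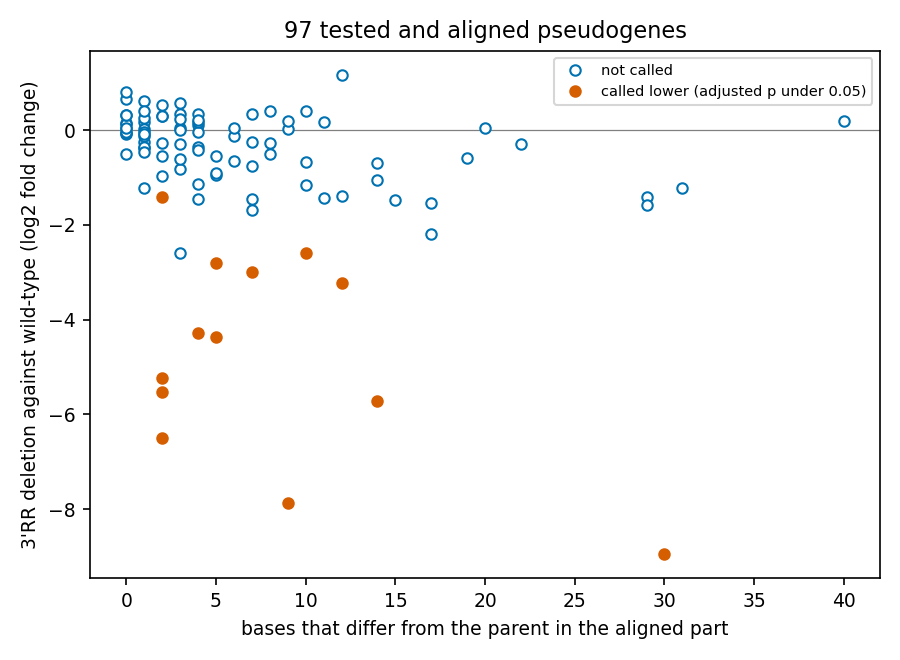
Each point is 1 of the 97 tested copies: bases that differ from the parent (x) and fitted log2 fold change of the 3'RR deletion against wild-type (y). The 13 called copies (filled) have 2 to 30 differing bases; the lowest point, Rps15a-ps8, has 0 counts in both 3'RR deletion libraries, so its fitted value is no measured fold.

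The 13 called copies had a median of 5 differing bases, and the 84 other tested copies a median of 4. None of the 13 was identical to its parent, while 12 of the 84 were. The parent's frame was open in 5 of the 13 (Rps3a3, Rpl34-ps1, Rps13-ps1, Rps15a-ps5 and Rpl3-ps1) and in 60 of the 84.

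The authors' transcript quantification (kallisto) gave a second assignment of the same libraries. All 235 copies were in it, but 70 of the 97 tested ones had fewer than 10 estimated counts in every library and 11 copies exceeded 1000 in at least 1 library. Rps3a3 had 1877, 0, 2363 and 2299 estimated counts resting and 3616, 0, 1523 and 4060 stimulated, in the order wild-type, 3'RR, hs3b-hs4 and 3'PAL deletion. Rpl34-ps1 had 3135, 6.54, 4354 and 4019 resting and 5471, 2.91, 2885 and 5822 stimulated. Both were again near or at 0 in the 3'RR deletion libraries. Rpl3-ps1 had 20.8 and 7.40 estimated counts in the resting and stimulated 3'RR deletion and 5327 to 30230 elsewhere. Its remainder in the gene table was thus not seen with kallisto.
Here the parents changed by more than in the gene table. Rpl34 itself had 573, 11590, 882 and 794 estimated counts resting and 1314, 14090, 5620 and 1257 stimulated, so that the copy held more than the parent in all but the 3'RR deletion and the stimulated hs3b-hs4 deletion libraries. Rps13 had 3164, 15770, 110 and 103 resting and 9095, 19920, 6372 and 241 stimulated, and Rps13-ps1 had 3308, 8.71, 10750 and 10870, then 10060, 7.12, 10060 and 16770. Fitted on these estimated counts, Rps3a3, Rpl34-ps1, Rps13-ps1 and Rpl3-ps1 were lower in the 3'RR deletion, while Rpl30-ps9 had at most 85.2 estimated counts in a library and no fitted value. Rps15a-ps8, the remaining one of the 13 with a fitted value, did not pass (adjusted p = 0.12).
The assignment also differed for copies outside the 13. Rps3a2 had 6.80 and 5.24 estimated counts in the resting and stimulated 3'RR deletion and 8564 to 19740 elsewhere, so it was near 0 here while the gene table left it 57.8 and 73.4 CPM. Rpl15-ps2 had 30.6 and 9.81 estimated counts in the 3'RR deletion and 292 to 863 in the other libraries, and was called lower, which it was not in the gene table. Rpl10-ps3, at 26.8 to 58.2 CPM in the gene table, had 10360 to 32040 estimated counts. Several copies with many counts in the gene table had almost none here: Rpl36a-ps3, Rps6-ps4 and Rpl15-ps3 had 0 estimated counts in all 8 libraries, Rps6-ps3 at most 8.79, Rps15a-ps7 at most 3.04 and Rpl19-ps11 at most 18.4. Others of the 13 were also near 0. Rpl29-ps5 had at most 5.06 estimated counts, Rpl3-ps2 4.565, Rps15a-ps6 4.14, Rps15a-ps5 2.085, Rps15a-ps3 2.06 and Rps13-ps5 1.22. The values of all these copies thus rest on the gene table.

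In the 3'PAL deletion, 1 of the 97 copies rose and 0 fell (background 0.346% and 0.19%). It was Rps2-ps10, a copy of Rps2, which encodes a small subunit protein at the messenger RNA entry site. Its levels were 10.2, 11.0, 16.2 and 46.6 CPM in resting and 28.0, 28.3, 30.7 and 82.1 CPM in stimulated cells of wild-type, 3'RR, hs3b-hs4 and 3'PAL deletion. Both 3'PAL deletion libraries were above all others, and the fold change was 1.86 on the log2 scale (SE 0.19, edgeR adjusted p = 0.011). The call was lost without the resting wild-type or the resting 3'PAL deletion library. Rps2-ps6, another Rps2 copy, had 0.461, 0.313, 0.848 and 4.84 CPM resting and 1.65, 1.55, 1.32 and 6.42 CPM stimulated. Its 3'PAL deletion libraries were also the highest 2 (log2 fold change 2.57), but it passed with DESeq2 (adjusted p = 0.0022) and not with edgeR.
Rps2 was assigned 665, 647, 724 and 568 CPM resting and 1702, 1691, 1474 and 1050 CPM stimulated, lowest in the 3'PAL deletion within each state. Its log2 fold change was -0.46 (edgeR adjusted p = 0.47). The Rps2 copies held 8.36% and 7.86% of the family's counts in the 3'PAL deletion libraries and 1.71% to 2.35% in the other 6. In the kallisto table Rps2-ps10 had 7938 and 17750 estimated counts in the 3'PAL deletion and 16.0 to 63.3 in the other libraries. With DESeq2, 7 copies were higher in the 3'PAL deletion and 0 lower, against 151 and 103 of all 14744 tested genes. Besides both Rps2 copies, the 7 were Rpl3-ps1, Rpl3-ps2, Rps13-ps1, Rps15a-ps6 and Rps15a-ps7, which are among the 13 that were lower in the 3'RR deletion. The 3 deletions are compared with the same wild-type libraries.

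In the hs3b-hs4 deletion, 0 of the 97 copies passed with edgeR in either direction (background 0.0746% higher and 0.0678% lower). An unadjusted edgeR p under 0.05 was found for 28 of the 97, against 1303 of all 14744 tested genes. DESeq2 called 4: Rpl3-ps1 higher, and Rpl27-ps1, Rpl28-ps1 and Rpl31-ps4 lower. Of all 14744 tested genes it called 94 higher and 87 lower. The median log2 fold change was -0.16 over the copies and 0.04 over all genes. Copies of other parent genes, the 88 tested of 734 genes outside the ribosomal protein families whose symbol ends in -ps and a number, gave 0 called, with a median of -0.38. In the 3'RR deletion 3 of those 88 fell, and 0 rose.

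Stimulation raised many copies, as it raised their parents. Of the 97 copies, 33 rose and 1 fell, against 35.7% of all tested genes that rose and 34.1% that fell. The median log2 fold change was 0.42 over the copies, 0.52 over the 55 parents (45 rose, 1 fell) and 0.01 over all genes. Of the 80 cytosolic ribosomal protein genes, 63 rose and 2 fell, and of the 5 tested ribosomal protein paralogs, 4 rose and 0 fell. The share of copies that rose was near that of all genes, and the share that fell was below it.

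Among the copies that rose, log2 fold changes ran from 0.29 to 1.13. Rpl36a-ps3 had the lowest adjusted p. It is a copy of the large subunit gene Rpl36a, with 27.1, 29.2, 27.5 and 25.4 CPM resting and 49.5, 60.3, 49.0 and 56.7 CPM stimulated, in the order wild-type, 3'RR, hs3b-hs4 and 3'PAL deletion. All 4 stimulated libraries were above all 4 resting ones. Rpl36a-ps3 rose by 0.98 on the log2 scale (SE 0.091, edgeR adjusted p = 6.5e-05) and Rpl36a by 0.57. Rps6-ps3 had 159, 177, 153 and 176 CPM resting and 229, 265, 205 and 250 CPM stimulated, also without overlap (0.51, SE 0.08, edgeR adjusted p = 0.00093), and Rps6-ps4 (0.48) and Rps6 (0.52) rose by about as much. Rps2-ps10 (1.13), Rps2-ps6 (1.12) and Rps2 (1.16) were close to each other, as were Rpl15-ps3 (1.10) and Rpl15 (0.84) given their SEs of 0.13 and 0.10.
Rpl10a-ps1, a copy of a large subunit gene, had 56.0 to 59.9 CPM resting and 75.6 to 106 CPM stimulated and rose by 0.63 (edgeR adjusted p = 0.0012), against 0.60 for Rpl10a. Rpl19-ps11 had 83.7 to 97.0 CPM resting and 110 to 132 CPM stimulated and rose by 0.40, against 0.41 for Rpl19. Neither overlapped between states. Rpl3-ps1 had a smaller value than its parent, 0.38 against 0.60 as the mean log2 ratio over the 4 genotypes.
The other copies that rose included Rpl10-ps1, Rpl10-ps3, Rpl14-ps1, Rpl15-ps2, Rpl21-ps15, Rpl23a-ps3, Rpl27-ps3, Rpl28-ps1, Rpl3-ps1, Rpl3-ps2, Rpl31-ps8, Rpl35a-ps6, Rpl39-ps, Rpl7a-ps5, Rpl7a-ps11, Rpl9-ps4, Rpl9-ps6, Rps12-ps9, Rps13-ps2, Rps13-ps4, Rps18-ps3, Rps25-ps1, Rps26-ps1 and Rps27a-ps2. Of the 34 copies called for stimulation, 9 passed in every alternative that gave a value, counted without regard to sign. They were Rpl10-ps1, Rpl10-ps3, Rpl15-ps3, Rpl36a-ps3, Rpl7a-ps11, Rps26-ps1, Rps27a-ps2, Rps6-ps3 and Rps6-ps4. Only Rpl10-ps3 and Rps26-ps1 among them had a fitted value with kallisto, where Rps26-ps1 passed with the opposite sign. Kallisto thus gives the rest of the 9 no support. Less stable calls included those of Rpl35a-ps6 (1 of 18 alternatives), Rpl21-ps15 (4 of 18), Rpl14-ps1 (6 of 19) and Rpl23a-ps3 (7 of 18). Without the stimulated 3'RR deletion library 16 copies rose in place of 33. The cell type markers given above moved with the state, and their part in these values was not tested.

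Rps12-ps26 was the copy that fell. It had 1.13, 0.80, 1.00 and 1.30 CPM resting and 0.467, 0.455, 0.682 and 0.807 CPM stimulated, or from 12 to 32 counts a library. Each stimulated library was below the resting one of its genotype, and the states overlapped only in the stimulated 3'PAL and the resting 3'RR deletion (log2 fold change -0.82, SE 0.27, edgeR adjusted p = 0.027). The call held in 4 of 18 alternatives. Its parent Rps12 rose by 0.76. Rps12-ps26 lies at chr11:107171900-107172232 inside Nol11, on the same strand. Rps16-ps2, among the 10 copies with the most counts, did not pass (-0.03, edgeR adjusted p = 0.86), with 62.1 to 83.5 CPM over the 8 libraries.

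**Figure D5:**
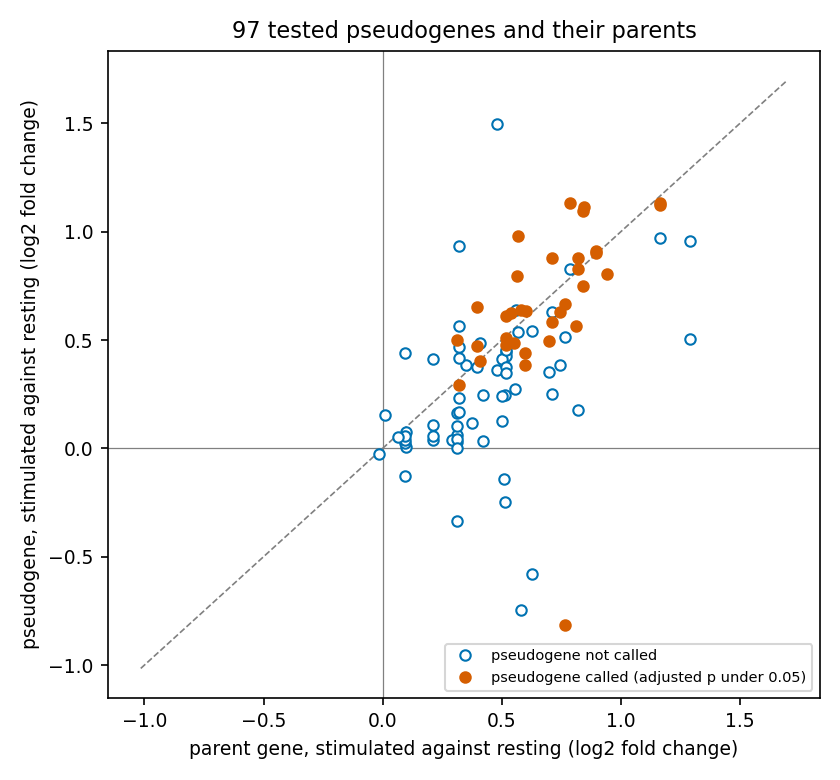
Log2 fold change of stimulated against resting cells for each of the 97 tested copies (y) and for its parent (x); filled points are copies that passed the test and the dashed line marks equal change. Most points lie at positive values on both axes, and Rps12-ps26 (-0.82 against 0.76 for Rps12) stands lowest.

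Within genotypes, the log2 ratio of stimulated to resting (CPM + 0.5) was lower in the copy than in its parent by a median of 0.15 over the 97 pairs. In 13 pairs the copy was below the parent in all 4 genotypes and in 1 pair, Rpl9-ps4 and Rpl9, above it in all 4. With 4 genotypes the smallest p an exact two-sided sign-flip test can give is 0.125, and no adjusted p was below 0.87, so this design could not show a difference for any pair.

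A further set of copies was high in the resting wild-type library. In resting cells 5 copies were lower in all 3 deletions than in wild-type by more than 1 on the log2 (CPM + 1) scale. They were Rpl21-ps8, Rpl27-ps1, Rpl31-ps4, Rps23-ps2 and Rps24-ps2, which were named after their values were seen. The share of all genes lower in all 3 deletions was not counted. The 5 can thus not be read as a trait of the copies. Rps24-ps2 had 4.87, 0.487, 0.347 and 0.204 CPM resting and 0.647, 0.682, 0.321 and 2.18 CPM stimulated, high in resting wild-type and in the stimulated 3'PAL deletion. Rpl31-ps4 had 7.48, 2.47, 1.31 and 1.87 CPM resting and 5.00, 3.11, 1.56 and 7.06 CPM stimulated, with the same 2 libraries highest. Their parents did not share this: Rps24 ranged from 1146 to 1577 CPM and was lowest in resting wild-type. By the same fold, 20 of 74 copies with at least 1 CPM in either library were lower in the resting 3'RR deletion and 1, Rpl35a-ps2, was higher, against 1.44% and 4.23% of all genes with at least 10 CPM. In the resting hs3b-hs4 deletion 11 of 75 were lower and 5 higher (all genes 1.52% and 2.15%), and in the resting 3'PAL deletion 12 of 78 were lower and 8 higher (1.28% and 2.33%). In stimulated cells 13 of 74 were lower and 0 higher in the 3'RR deletion (1.4% and 1.86%), 7 of 74 and 0 in the hs3b-hs4 deletion (0.841% and 0.646%), and 0 and 3 of 78 in the 3'PAL deletion (0.611% and 2.23%). The minimum level differs between the copies and all genes, so these shares are not matched for depth. Rpl35a-ps2 had 9.38 CPM in resting wild-type and 27.0 to 36.2 CPM in the other 7 libraries. The resting wild-type library is part of all 3 comparisons in resting cells and had the lowest depth. Its summed erythroid markers were also the lowest of the resting libraries, at 3068 CPM, and their part in these values was not tested.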

How the data were processed

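RNA was depleted of ribosomal RNA and sequenced as stranded paired-end libraries, per the labels' protocols. Reads were mapped with STAR 2.4.0a and counted with featureCounts of Subread 1.4.6-p1 on mm10/GRCm38, per the submitters' processing notes. The sources used here do not give the strand setting, the annotation version or the treatment of multi-mapping reads. The deposited gene table holds the authors' raw counts. The authors' deposited kallisto 0.42.3 tables hold estimated counts and TPM per transcript; the estimated counts were summed per symbol and rounded for the fit, and the deposited TPM values entered no comparison.

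Copies were matched by symbol, and 1 blank entry (at most 0.0342% of counts) and 93 spike-in entries were left out. The main test was edgeR 4.0.16 (quasi-likelihood, R 4.3.3) with genotype and state as terms, TMM scaling (factors 0.925 to 1.09), filterByExpr and 3 residual degrees of freedom; DESeq2 1.42.0 was an alternative. With 1 pooled library per genotype and state, the spread behind each p-value is that left by an additive model, not that between animals of a group. Ratios of 2 libraries have 95% intervals, and a count of 0 was read as up to 3 counts. Sequences were aligned with Biopython 1.88 (match 2, mismatch -3, gap -6 and -2). The fit was tested on simulated data. The members and gene lists were chosen with earlier results of these data known. Named copies are the 10 with the highest mean CPM, all that passed a test, and any with at least 1 CPM in both libraries of 1 genotype and at most 3 counts in both of another; others named were chosen after their values were seen. One copy that passed is not reported by name here.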

Additional observations from a re-analysis of the deposited data

Results flagged for a closer look

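For 9 named copies with at least 10 CPM in a library, the 95% interval of the stimulated to resting ratio lay above 1 in at least 1 genotype and below 1 in another; the highest and lowest such ratios are given. Rps15a-ps3, at a lower level, had 1.68 in wild-type and 0.619 in the hs3b-hs4 deletion. Each ratio comes from 1 pair of libraries, and the difference between genotypes was not tested. In 5 of them the rise was in wild-type and the fall in the hs3b-hs4 deletion: Rps3a3 (1.75 against 0.765), Rps13-ps1 (3.21 against 0.947), Rps15a-ps5 (1.73 against 0.717), Rps15a-ps6 (1.39 against 0.771) and Rps15a-ps7 (1.74 against 0.628). Rpl34-ps1 (1.91 against 0.711) and Rpl30-ps9 (2.11 against 0.599) were above 1 in the 3'RR and below 1 in the hs3b-hs4 deletion, and their 3'RR values rest on few counts. The ratio of Rps16-ps2 was 1.2 in the 3'PAL and 0.778 in the hs3b-hs4 deletion. That of Rpl14-ps1 was 2.18 in the 3'PAL deletion and 0.855 in wild-type.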

How the results depend on the processing

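The 13 copies lower in the 3'RR deletion became 8 to 14 when 1 library was left out, the fewest without the resting 3'RR deletion library, and 6 with kallisto estimated counts, where 27 copies were tested. Of the 13, 8 passed in every alternative that gave a value for them (Rps3a3, Rpl34-ps1, Rps13-ps1, Rps13-ps5, Rpl30-ps9, Rpl3-ps2, Rps15a-ps6 and Rps15a-ps7). The copies higher there, 0 in the main fit, were 1 with DESeq2, 1 without the low-count filter and 0 to 1 with a library left out, and the 3 parents higher there became 0 to 3. In the hs3b-hs4 deletion DESeq2 called 1 copy higher and 3 lower and the unfiltered fit 1 and 2. In the 3'PAL deletion the 1 copy higher became 7 with DESeq2, 8 without the filter, 2 with kallisto and 0 to 3 with a library left out, and kallisto called 1 lower. For stimulation the 33 copies higher became 16 to 29 with a library left out and 7 with kallisto. The 1 copy lower became 0 with DESeq2, 0 with a minimum of 1 CPM, 2 with kallisto and 0 to 2 with a library left out, and the 1 parent lower became 0 to 1. The sign reversed with kallisto for Rps26-ps1 (-1.635) and Rps12-ps9 (-1.331) under stimulation. The cause of these changes was not tested. Of the 8 copies that passed in every alternative, Rps13-ps5, Rpl30-ps9, Rpl3-ps2, Rps15a-ps6 and Rps15a-ps7 had no fitted value with kallisto. There Rpl30-ps9 had at most 85.2 estimated counts in a library and the others at most 4.565, so kallisto gives them no support.

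No paired analysis by replicate number was possible because each group has 1 library; the genotype term of the stimulation fit pairs the libraries of a genotype, and without that block 25 copies were higher in place of 33 and 1 lower. Leaving out a library leaves its genotype with 1, which is assumed to vary like the rest. Depth limits the 51 copies with at most 3 counts in every library, for which no difference was detectable.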
